A study of Mus musculus with 7 samples.

Results

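The villin-gelsolin family comprises 8 mouse genes for actin-binding proteins: Avil, Vil1, Vill, Gsn, Scin, Capg, Flii and Svil. They were found by symbol among 29777 genes in the table of raw counts, and all 8 were present. The family was chosen by the difference of Avil between the 2 genotypes in these libraries, so the differences between genotypes are given as a description. Sorted GFP+ cells of the cervical dorsal root ganglia, from ICR mouse embryos at E11.5, gave the RNA. The groups were 4 libraries from Runx3-P2-/- embryos (homozygotes) and 3 libraries from Runx3-P2+/- embryos (heterozygotes). Runx3 is a Runt-family transcription factor of TrkC neurons, the sensory neurons that include the future proprioceptors. Every library carried the Runx3-P2 allele with GFP, on 1 copy in the heterozygotes and both in the homozygotes, and none came from wild-type embryos, although the file headers call the heterozygotes WT. The series text mentions pools of 4 for each genotype, and the labels do not say whether the libraries came from separate litters, so errors cover the spread between these libraries.

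Proteins of this family contain repeated gelsolin-type domains, which in several members bind actin filaments in a calcium- and phosphoinositide-dependent way. Depending on the member they sever filaments, cap the fast-growing barbed end, nucleate new filaments or bundle existing ones. Villin, advillin, the villin-like protein and supervillin also carry a C-terminal headpiece, a small domain that in villin binds the side of a filament. Advillin is best known from sensory ganglia, and its gene is used to drive Cre recombinase in peripheral sensory neurons.

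Since Avil was the member that differed most and Runx3 is a transcription factor, the bases before the Avil start site are shown, with those of Vill, the member with the next lowest ratio of homozygotes to heterozygotes, for comparison. Both come from RefSeq on GRCm38.p6, which is not the mm9 build named for the deposited files, and run 5′ to 3′ on the plus strand. Capitals mark TGTGGT, a 6-base form of the Runx motif; TGCGGT and the complements ACCACA and ACCGCA were also searched. The Avil window, chr10:127000459-127000708, held 1 match on the plus strand, starting 25 bases before the start site.
Avil: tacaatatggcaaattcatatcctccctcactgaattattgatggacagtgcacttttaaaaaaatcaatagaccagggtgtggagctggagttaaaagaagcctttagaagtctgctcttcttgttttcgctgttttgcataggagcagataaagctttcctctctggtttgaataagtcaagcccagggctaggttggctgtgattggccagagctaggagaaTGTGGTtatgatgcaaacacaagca
The Vill window, chr9:119052528-119052777, held no match.
Vill: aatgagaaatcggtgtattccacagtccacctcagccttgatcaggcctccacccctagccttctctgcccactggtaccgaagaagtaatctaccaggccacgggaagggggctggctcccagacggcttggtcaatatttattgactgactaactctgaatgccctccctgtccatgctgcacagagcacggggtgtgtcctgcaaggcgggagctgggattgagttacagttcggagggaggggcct
Of 32851 RefSeq promoter windows of the same 250 bases, 18.6% held at least 1 of these 4 words and 14% held TGTGGT or its complement. Of the 7 members with a window in the table, Gsn also had matches, in each of its 3 windows, and Vil1, Scin, Capg and Flii had none. A match is a string of letters and not a measured binding site.

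Total counts lay between 11767169 and 13986835 in the homozygotes and between 11184237 and 13217422 in the heterozygotes. Values per library are CPM, counts divided by TMM-corrected library size. Runx3, the targeted gene, was at 6.49 to 12.1 CPM in the homozygotes and 67.2 to 94.5 CPM in the heterozygotes. Homozygote library 3 and heterozygote library 3 stood apart, at opposite ends of the first principal component (60.2 and -52.9), and values without both are given beside the results they touch. Of 26 sensory neuron markers in the table, all 26 passed the count filter, and their summed level was 16235 to 29518 CPM in the homozygotes and 28002 to 33183 CPM in the heterozygotes, lowest in homozygote library 3. Of 19 leukocyte markers in the table, 18 passed the filter. Without Coro1a, which neurons also express, the leukocyte sum was 424, 626, 4154 and 740 CPM in homozygote libraries 1 to 4 and 138, 141 and 9.13 CPM in heterozygote libraries 1 to 3. In bulk RNA, fewer cells of a type and less RNA per cell cannot be told apart.

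Avil, which encodes advillin, was lower in the homozygotes. Its counts were 394, 303, 175 and 426 in homozygote libraries 1 to 4, against 1582, 1150 and 2195 in heterozygote libraries 1 to 3. These correspond to 28.7, 23.6, 14.02 and 36.1 CPM in the homozygotes and 123, 99.5 and 191 CPM in the heterozygotes. The groups did not overlap, and the highest homozygote library, 4, lay far below the lowest heterozygote library, 2. The mean was 25.6 ± 9.28 CPM in the homozygotes (SD, n = 4) and 138 ± 47.4 CPM in the heterozygotes (SD, n = 3), a ratio of 0.186 and a log2 fold change of -2.43 ± 0.33 (SE, edgeR). Avil was still counted in every homozygote library.

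Avil was also set against sensory neuron genes of the same library. Of the 26 sensory neuron markers, 21 were on the lower side and 5 on the higher side. Their log2 fold changes had a median of -0.386, or -0.0735 without both libraries 3. Fam38b and Scn10a were at -1.99 and -1.66, and Ntrk2 was at 2.33. EdgeR called none of the 26 (adjusted p = 0.149, 0.128 and 0.0626 for these 3). DESeq2 called 3 markers lower and 1, Ntrk2, higher, where it called 1.31% of all genes lower and 3.46% higher. Per 100 CPM of the summed sensory neuron list, Avil was at 0.110, 0.0873, 0.0864 and 0.122 CPM in homozygote libraries 1 to 4. In heterozygote libraries 1 to 3 it was at 0.426, 0.355 and 0.575 CPM. The sum is weighted to its most abundant genes, with Tubb3 at a mean of 8520 CPM in the homozygotes and 9985 CPM in the heterozygotes. Fam38b, at 11.1 and 44.1 CPM, and Scn10a, at 24.7 and 77.9 CPM, weigh little in it. Homozygote library 3, which had the lowest Avil level and the lowest sum of sensory neuron markers, lay with the other homozygotes on the ratio of Avil to this sum. The leukocyte sum without Coro1a was highest in that library (4154 CPM). It was lowest in heterozygote library 3 (9.13 CPM), where Avil was highest (191 CPM). The part of the leukocyte markers in the Avil values was not tested. For each count of Isl1, a homeodomain factor of sensory neurons, there were 0.0206 to 0.0307 counts of Avil in the homozygotes and 0.0721 to 0.153 in the heterozygotes. Without both libraries 3 the log2 fold change of Avil was -1.92 ± 0.27 (SE), and among libraries dated from late October to late December, which left out homozygote libraries 1 and 3, it was -2.21 ± 0.34 (SE).

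The annotation places Tsfm, a mitochondrial translation factor gene, on the opposite strand over 4.86% of the Avil exon bases in GENCODE M21. Whether strand was used in counting is not given in the sources at hand, so reads of this stretch could have been assigned to either gene. Tsfm had 206, 381, 430 and 586 counts in homozygote libraries 1 to 4 and 259, 210 and 190 in heterozygote libraries 1 to 3, so it was not lower in the homozygotes as a group.

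**Figure D1:**
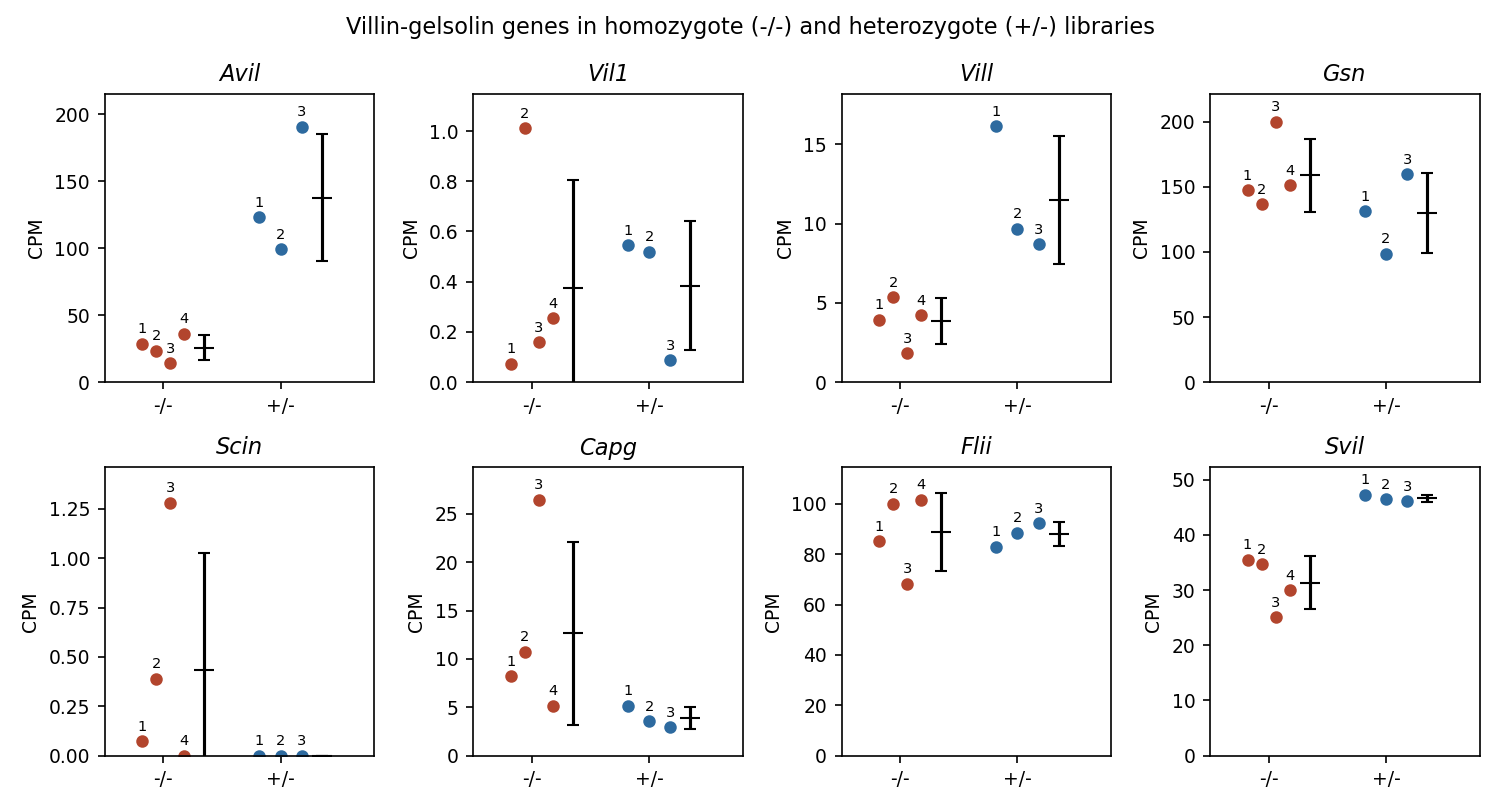
CPM of the 8 villin-gelsolin genes in each library, homozygotes (-/-) left and heterozygotes (+/-) right, with the replicate number above each point and the mean ± SD as a black bar whose lower end stops at 0. Avil lies at 14.02 to 36.1 CPM in the homozygotes and 99.5 to 191 CPM in the heterozygotes, and each panel has its own axis starting at 0.

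Of the 8 members, 6 passed the filter on low counts, each with counts in both genotypes, and Vil1 and Scin did not. In edgeR's quasi-likelihood test across all 14040 genes with Benjamini-Hochberg adjustment, 7 genes (0.0499%) had an adjusted p below 0.05 and 5 of them (0.0356%) were lower in the homozygotes. Avil was the 1 member among the 5 (adjusted p = 0.0493, edgeR). Its call was lost in 6 of the 7 fits that left out 1 library, with adjusted p of 0.0588 to 0.242 (edgeR), and held without homozygote library 3. Because Avil chose the family, nothing is read from that count. The other 5 tested members had adjusted p between 0.188 and 0.988 (edgeR). DESeq2 on the same counts called 1.31% of genes lower and again Avil alone among the members. Of the 6 tested members, 3 lay below the heterozygotes without overlap in CPM and 1, Capg, above, where 5.78% of all genes tested lay below and 6.6% above. The 3 were Vill, Svil and Avil, and since Avil chose the family, nothing is read from this count either. The median log2 fold change of the 6 tested members was -0.28, against -0.0177 over all genes tested. Without both libraries 3 it was -0.164, against -0.00864. Both medians include Avil, so nothing is read from them. Among the other 5 tested members the middle value was that of Flii, 0.0133, or 0.159 without both libraries 3.

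Of the other members with a headpiece, Vill and Svil had lower values in the homozygotes that did not pass the test, and Vil1 could not be tested. Vill, which encodes the villin-like protein, had 54, 69, 23 and 50 counts in homozygote libraries 1 to 4, against 207, 112 and 100 in heterozygote libraries 1 to 3. All homozygote libraries lay below all heterozygote libraries. The mean was 3.85 ± 1.47 CPM in the homozygotes (SD, n = 4) and 11.51 ± 4.04 CPM in the heterozygotes (SD, n = 3), a log2 fold change of -1.58 ± 0.47 (SE) that did not pass the test (adjusted p = 0.188, edgeR). In the authors' deposited table Vill is on the list of 464 genes with at least a 2-fold change, at a log2 fold change of -1.35 with the sign turned to homozygote over heterozygote and an adjusted p of 0.0296. Of the genes with an adjusted p in the authors' deposited table, 4.69% were under 0.05, Avil and Vill among the members. DESeq2 gave Vill an adjusted p of 0.0575 here. Vill was lowest in homozygote library 3, at 1.84 CPM, where the leukocyte sum was highest; the part of the leukocyte markers in the Vill values was not tested, and without both libraries 3 the log2 fold change was -1.51 ± 0.495 (SE).

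Svil, which encodes supervillin, a large membrane-associated protein that binds actin and myosin II, was at 35.5, 34.7, 25.1 and 30.01 CPM in homozygote libraries 1 to 4 and at 47.3, 46.4 and 46.1 CPM in heterozygote libraries 1 to 3. The coefficient of variation was 15.4% in the homozygotes and 1.37% in the heterozygotes, and every homozygote library lay below the heterozygotes. The mean was 31.3 ± 4.82 CPM in the homozygotes (SD, n = 4) and 46.6 ± 0.637 CPM in the heterozygotes (SD, n = 3). On the log2 scale the difference was -0.57 ± 0.21 (SE), which did not pass (adjusted p = 0.282, edgeR). Across the homozygotes, Svil was lowest in library 3, where the leukocyte sum was highest; the part of that difference in the result was not tested, and without both libraries 3 the log2 fold change was -0.49 ± 0.27 (SE).

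Vil1, which encodes villin of the intestinal and renal brush border, was near the limit of detection. It had 1, 13, 2 and 3 counts in homozygote libraries 1 to 4 and 7, 6 and 1 in heterozygote libraries 1 to 3. The ratio of homozygotes to heterozygotes was 0.958 (95% exact interval 0.455 to 2.06, counting error only), so a difference was not detectable at this depth. Of the 12 epithelial markers in the table, 2, Muc1 and Ezr, passed the filter on low counts and 3, Krt19, Cldn4 and Cdx2, had 0 counts in every library. Krt18 had 28, 7, 79 and 0 counts in homozygote libraries 1 to 4 and 0 in all 3 heterozygote libraries.

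Gsn, Flii and Capg, the tested members without a headpiece, did not pass the test. Gsn, which encodes gelsolin, the severing and capping protein that gives the family its name, was at 147, 137, 200 and 151 CPM in homozygote libraries 1 to 4 and at 132, 98.5 and 160 CPM in heterozygote libraries 1 to 3. The groups overlapped, and homozygote library 3 was highest. Gsn had a log2 fold change of 0.29 ± 0.21 (SE) and an adjusted p of 0.639 (edgeR).

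Flii, which encodes flightless-1, a protein of leucine-rich repeats joined to gelsolin domains, was at 85.0, 100.01, 68.3 and 102 CPM in homozygote libraries 1 to 4 and at 82.9, 88.6 and 92.3 CPM in heterozygote libraries 1 to 3. The heterozygote libraries lay within the range of the homozygotes. Flii had a log2 fold change of 0.0133 ± 0.19 (SE) with an adjusted p of 0.988 (edgeR), and its sign turned under 4 of 18 alternative settings.

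Capg, which encodes a barbed-end capping protein that does not sever and is abundant in macrophages, was the one tested member whose homozygote libraries all lay above the heterozygote libraries. It was at 8.24, 10.7, 26.4 and 5.17 CPM in homozygote libraries 1 to 4 and at 5.15, 3.55 and 2.96 CPM in heterozygote libraries 1 to 3. The gap was narrow, since homozygote library 4 and heterozygote library 1 had 61 and 66 counts before scaling. Capg had a log2 fold change of 1.70 ± 0.59 (SE) with an adjusted p of 0.251 (edgeR). The value was 0.89 ± 0.57 (SE) without both libraries 3. Of the 18 leukocyte markers tested, all 18 were on the higher side in the homozygotes, 0 of them called by edgeR, 16 at an unadjusted p below 0.05 (7.75% of all genes tested were below 0.05 and higher) and 13 called by DESeq2 (3.46% of all genes were called higher), and their sum was highest in homozygote library 3, as Capg was; their part in the Capg values was not tested. In heterozygote library 3, the leukocyte sum without Coro1a was 9.13 CPM and 5 of the 19 markers had 0 counts. Of these 5 markers, 1 had 0 counts in every library. Capg had 34 counts there, and its level of 2.96 CPM was the lowest of the 7 libraries.

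Scin, which encodes adseverin, a severing protein known from the cortical actin of secretory cells, had 1, 5, 16 and 0 counts in homozygote libraries 1 to 4 and 0 in all 3 heterozygote libraries. Set against a limit of 3 counts over the heterozygote group, the homozygote counts as measured were 5.18-fold higher. Without homozygote library 3, which held 16 of the 22 counts, they were 1.87-fold higher. These values leave out the counting error of the homozygotes, so they are not lower limits of the true ratio. Homozygote library 4 had 0 counts as well. The leukocyte sum was highest in homozygote library 3, and the part of the leukocyte markers in the Scin values was not tested.

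**Figure D2:**
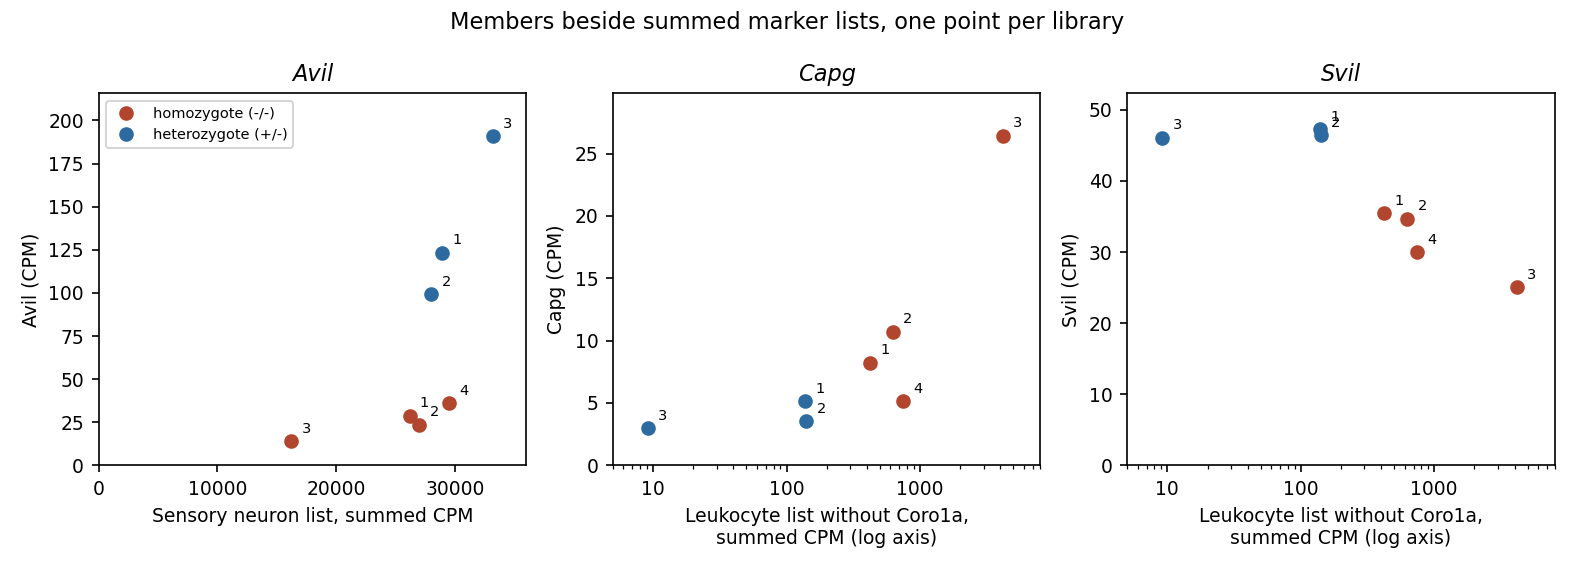
Avil against the summed sensory neuron markers, and Capg and Svil against the summed leukocyte markers without Coro1a on a log axis, 1 point per library labelled with its replicate number (CPM on all axes). Homozygote library 3 has the lowest Avil (14.02 CPM), the highest Capg (26.4 CPM), the lowest Svil (25.1 CPM) and the highest leukocyte sum (4154 CPM).

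Shares of the family's counts sum to the whole, so they carry the difference of Avil that chose the family and are given as a description. Avil held 9.30%, 7.54%, 4.16% and 10.99% of the family's counts in homozygote libraries 1 to 4, against 30.3%, 28.7% and 38.1% in heterozygote libraries 1 to 3. Gsn held 49.2 ± 6.96% in the homozygotes (SD, n = 4) and 30.9 ± 2.15% in the heterozygotes (SD, n = 3), without a call for Gsn itself. The summed level of the family was 322 ± 13.5 CPM in the homozygotes (SD, n = 4) and 418 ± 77.6 CPM in the heterozygotes (SD, n = 3). Without Avil the sums were 296 ± 18.8 CPM in the homozygotes and 280 ± 31.5 CPM in the heterozygotes, and these ranges overlapped.

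**Figure D3:**
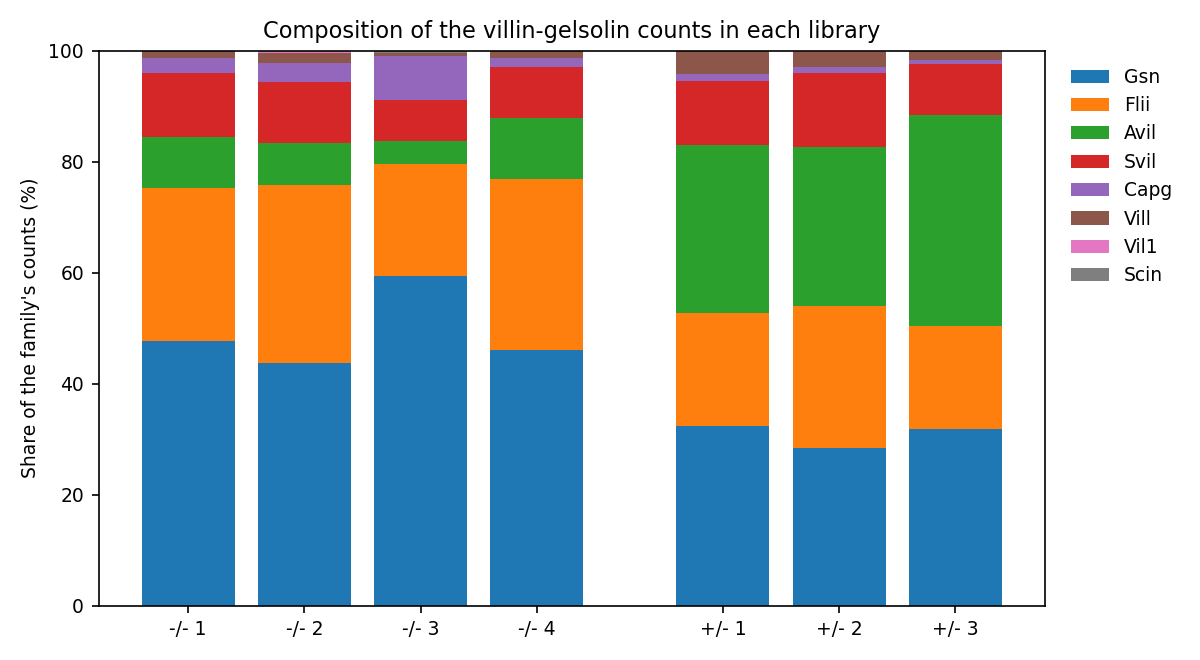
Share of the family's counts (%) held by each of the 8 genes, 1 bar per library, homozygotes (-/-) left and heterozygotes (+/-) right. Avil holds 4.16% to 10.99% of the counts in the homozygotes and 28.7% to 38.1% in the heterozygotes.

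Levels were compared between genes as CPM per kilobase of the longest GENCODE M21 transcript of each gene. In the homozygotes the order was Gsn (59.9 ± 10.7), Flii (21.9 ± 3.83), Capg (9.03 ± 6.77), Avil (8.44 ± 3.06), Svil (3.96 ± 0.609), Vill (1.32 ± 0.505), Scin (0.146 ± 0.197) and Vil1 (0.120 ± 0.138 CPM per kb; SD, n = 4). In the heterozygotes it was Gsn (49.0 ± 11.6), Avil (45.5 ± 15.6), Flii (21.7 ± 1.17), Svil (5.90 ± 0.0805), Vill (3.96 ± 1.39), Capg (2.77 ± 0.809), Vil1 (0.123 ± 0.0824 CPM per kb; SD, n = 3) and Scin at 0. In heterozygotes Gsn and Avil were not separated, with ranges of 37.1 to 60.2 and 32.8 to 62.9 CPM per kb, and Vill and Capg overlapped too. In homozygotes Capg, at 3.69 to 18.9 CPM per kb, overlapped Flii (16.8 to 25.0), Avil (4.62 to 11.9) and Svil (3.17 to 4.49), so its place in the order is not resolved, and Scin and Vil1 overlapped near 0. With coding length in place of transcript length, Avil came first and Gsn second in the heterozygotes (56.0 and 55.5 CPM per kb), and no other place changed.

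Genes outside the family that act on the same filaments were described from 6 lists, in the same edgeR fit. The headpiece relatives Ablim1, Ablim3 and Epb4.9 (dematin) carry a villin-type headpiece without gelsolin domains. EdgeR called none of the 3, with log2 fold changes of -0.53 for Ablim1, -1.39 for Ablim3 and -1.57 for Epb4.9 and unadjusted p of 0.118, 0.00197 and 0.0564; Ablim3 alone was below 0.05, as were 12.6% of all genes tested, and DESeq2 called it. Ablim3 was at 22.5, 34.3, 20.6 and 50.7 CPM in homozygote libraries 1 to 4 and at 58.2, 93.2 and 99.6 CPM in heterozygote libraries 1 to 3. Its groups did not overlap, nor did those of Epb4.9, where 5.78% of all genes tested lay below without overlap. Ablim3 had a log2 fold change of -1.39 ± 0.33 (SE). Its adjusted p was 0.135 by edgeR and 0.0047 by DESeq2, which called 1.31% of all genes lower. Epb4.9 had 5, 114, 72 and 65 counts in homozygote libraries 1 to 4 and 136, 215 and 191 in heterozygote libraries 1 to 3. Ablim1, the most abundant of the 3, was at 133 ± 55.1 CPM in the homozygotes (SD, n = 4) and 192 ± 52.3 CPM in the heterozygotes (SD, n = 3), with overlap.

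For the other actin regulators, the median log2 fold change was 0.0904 for 34 tested capping and severing genes, 0.0055 for 14 bundling genes, -0.119 for 35 nucleation and elongation genes and 0.0973 for 11 actins and monomer binders. Without both libraries 3 these medians were 0.139, 0.0923, -0.0401 and 0.272. EdgeR called 0 genes in each of these lists. In the same order, 4, 3, 3 and 2 genes reached an unadjusted p below 0.05, and calls by DESeq2 numbered 3, 3, 1 and 0, where DESeq2 called 4.77% of all genes. Cfl1, which encodes cofilin-1, the main filament-severing protein, was at 1735 ± 57.9 CPM in the homozygotes (SD, n = 4) and 1526 ± 64.1 CPM in the heterozygotes (SD, n = 3; adjusted p = 0.578, edgeR). Actb, beta-actin, was at 16024 ± 1044 CPM in the homozygotes and 14979 ± 1546 CPM in the heterozygotes (SD, n = 4 and 3; adjusted p = 0.825, edgeR). Fscn1, fascin, the bundling protein of filopodia, was at 192 ± 17.1 CPM in the homozygotes and 195 ± 65.1 CPM in the heterozygotes. Dstn, Flna, Actr2, Cyfip2 and Tmsb4x, the other most abundant genes of these lists, had log2 fold changes of 0.0534, -0.0885, -0.23, -0.40 and -0.24, none of them called. Without both libraries 3, edgeR called 1 bundling gene higher.

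Among the partners of the family, Scarf1, a scavenger receptor that binds advillin, was below the count filter at 0.338 ± 0.454 CPM in the homozygotes (SD, n = 4) and 0.753 ± 0.780 CPM in the heterozygotes (SD, n = 3). Lrrfip1 and Lrrfip2 bind the leucine-rich repeats of flightless-1. Lrrfip1 had a log2 fold change of 1.25 ± 0.57 and Lrrfip2 of -0.44 ± 0.33 (SE), and neither passed (adjusted p = 0.406 and 0.654, edgeR).

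**Figure D4:**
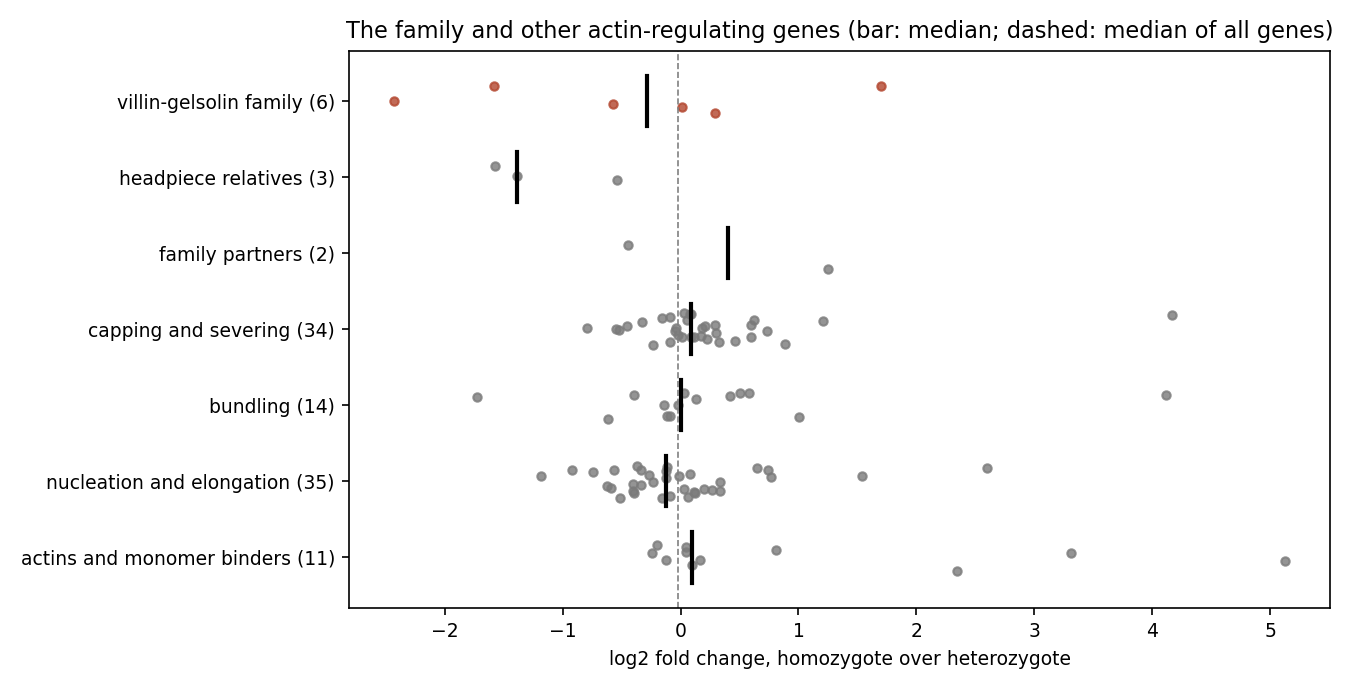
Log2 fold change (homozygote over heterozygote) of each tested gene of the family and of 6 lists of actin-regulating genes, with the number of genes in brackets, the median as a bar and the median of all genes dashed. The 3 headpiece relatives drawn lie below 0, and the other lists straddle 0.

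The genes whose levels followed Avil most closely were sought among 11178 named genes of mean log2 CPM of at least 1, by Pearson's r of log2 CPM over the 7 libraries. The 5 highest were Frmd3 (r = 0.993), Shisa6 (0.990), Tubb2c (0.989), P4ha2 (0.983) and Gfra3 (0.982). The 7 points share the split by genotype, so any gene lower in homozygotes scores high, and r is given as a measure of likeness only. Shisa6, an AMPA receptor accessory protein gene, was at 3.08 ± 1.81 CPM in the homozygotes (SD, n = 4) and 27.8 ± 12.5 CPM in the heterozygotes (SD, n = 3). Gfra3, the artemin receptor gene, was at 83.3 ± 29.4 CPM in the homozygotes and 216 ± 37.5 CPM in the heterozygotes. Taken as deviations from the genotype means, the 5 genes most like Avil were Rbms3 (r = 0.995), Actn3 (0.993), Kif3c (0.991), Gpr64 (0.989) and Zfp941 (0.989), and none of these was among the first 5. Actn3 was low, at 5 to 61 counts per library. Both sets of 5 are the highest of 11178 genes over 7 libraries, and how high r runs by such selection alone was not tested. Within the family, r to Avil over the 7 libraries was highest for Svil (0.912) and Vill (0.878). Their r of deviations from the genotype means was 0.501 and 0.421, below that of Flii (0.742). The most negative r was that of Capg (-0.887) and Scin (-0.753), with r of deviations of -0.869 and -0.816. Scin had at most 16 counts in any library.

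**Figure D5:**
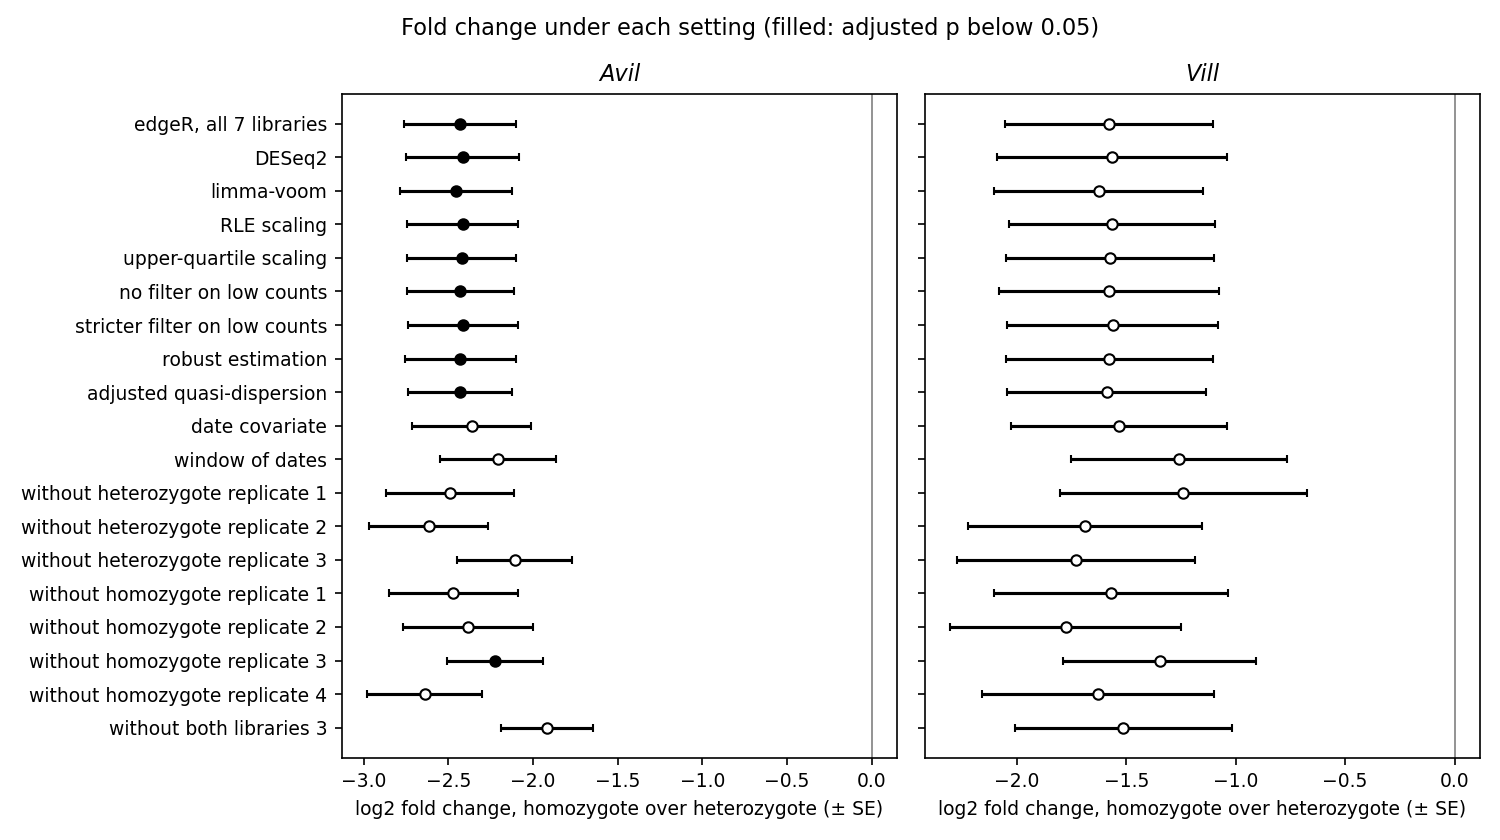
Log2 fold change (homozygote over heterozygote, ± SE) of Avil and Vill with edgeR on all 7 libraries and under 18 alternative settings, filled where the adjusted p is below 0.05. Avil stays between -2.64 and -1.92 and Vill between -1.78 and -1.24, and no setting calls Vill.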

How the data were processed

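Raw counts for 29777 genes were deposited by the authors. The submitters' processing notes list TopHat 1.4.0, HTSeq, DESeq2 1.2.8 and mm9 but not what each was used for; RNA was amplified before library preparation, per the labels' protocols. The deposited normalized reads, a signal made from counts and a size factor, were not used. The authors' deposited log2 fold changes and p-values run heterozygote over homozygote and were used only where named.

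Genes were kept by filterByExpr (minimum count 10, minimum total 15), scaled by TMM and tested with edgeR 4.0.16 (glmQLFit with the legacy quasi-dispersion, glmQLFTest, two-sided) under R 4.3.3, with Benjamini-Hochberg adjustment over 14040 genes. SE is the log2 fold change over the square root of F. DESeq2 1.42.0, limma 3.58.1 and other settings were alternatives. The steps were tested on simulated counts. A check for libraries deposited more than once found none (chi-square statistic over its degrees of freedom 30.7 to 76.4). A title and a source name disagree on the month of heterozygote library 1; month 11 was used. Likeness to Avil used a pseudocount of 0.5 CPM.

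The members and lists were chosen with earlier results of these data known. Named were all members, Runx3, of each actin list up to 4 called genes or the 2 most abundant tested, and the 5 genes most like Avil by each measure. Scarf1, Epb4.9, the overlapping gene Tsfm and the actin regulators called by DESeq2 were added after their values were seen. So were the sensory neuron genes Isl1, Tubb3, Fam38b, Scn10a and Ntrk2 and the epithelial markers. One gene of the headpiece list is not reported here and was left out of its counts and median.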

Additional observations from a re-analysis of the deposited data

Results flagged for a closer look

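Among 36 quantities checked for a homozygote library far from the other homozygotes, 2 were past Dixon's 95% limit for groups of 4, and chance passes about 1 in 20. The summed leukocyte markers without Coro1a were at 424, 626, 4154 and 740 CPM in homozygote libraries 1 to 4, and library 3 stood apart by 0.915 of the group's range. Fscn1 was at 198, 200.5, 166 and 201 CPM in homozygote libraries 1 to 4 and at 136, 265 and 184 CPM in heterozygote libraries 1 to 3, and the gap of library 3, here the lowest, was 0.916 of the homozygote range. No level of a family member was past the limit; Vil1 came nearest at 0.807.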

How the results depend on the processing

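No paired analysis was possible because the replicate numbers follow accession order and pair no samples.

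EdgeR called 7 genes on all libraries, 1 of them a member, Avil. The number of genes called was 668 with DESeq2, 80 with no filter on low counts, 46 with the stricter filter, 62 with the adjusted quasi-dispersion, 3 with the date covariate and 12 without both libraries 3; leaving out 1 library gave 1 (without heterozygote library 2 or 3) to 27 (without homozygote library 3). The cause was not tested. The number of members called was 0 with the date covariate, in the window of dates and without both libraries 3, and 0 to 1 when 1 library was left out. Avil kept its sign under all 18 alternatives and was called in 9 of them. Its log2 fold change was -2.36 (adjusted p = 0.0615) with the date covariate, -2.21 (adjusted p = 0.0908) in the window of dates and -1.92 (adjusted p = 0.058) without both libraries 3, all by edgeR. When 1 library was left out it ran from -2.64 to -2.11, and it was called only without homozygote library 3 (adjusted p = 0.0317, edgeR); fewer samples enter each of these fits. Flii, near 0, turned to -0.0030 with limma-voom and ran from -0.0577 to 0.123 when 1 library was left out. Vill, Gsn, Capg and Svil kept their sign and stayed uncalled under all 18. Runx3 was uncalled without heterozygote library 2 (adjusted p = 0.0885) or 3 (adjusted p = 0.0576, edgeR). Of the 5 genes most like Avil by Pearson's r, 3 were also among the first 5 by Spearman's rho. Coding length from RefSeq proteins was not run. Depth limits Vil1 and Scin, with at most 16 counts in any library.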
